A study of Mus musculus with 2 samples.

Results

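The monocyte recruitment genes examined here are 4 chemokine ligands, Ccl2, Ccl7, Ccl8 and Ccl12, and 2 chemokine receptors, Ccr2 and Cx3cr1. They were taken by symbol from the features of single-cell RNA sequencing of J558 allografts, where all 6 were present among 32285 features. J558 is a mouse plasmacytoma line, a tumour of antibody-secreting B lineage cells, and it was grown under the skin of female BALB/c mice, which are syngeneic to it and keep their immune system. TAK-931, an inhibitor of the DNA replication kinase CDC7, was given orally at 60 mg/kg once daily for 6 days, and the vehicle was 0.5% methylcellulose. The comparison addressed whether these genes differed between TAK-931-treated and vehicle-treated allografts, in which cells, and by how much. There was 1 library per treatment, made from the allograft of 1 mouse that the study took as its representative. Therefore no spread between animals could be measured, no test was made, and every interval below is a 95% interval that covers counting error only.

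Blood monocytes enter inflamed tissue and tumours by following chemokines. CCL2, CCL7, CCL8 and CCL12 are CC chemokines encoded by neighbouring genes, and CCL2, CCL7 and CCL12 act on CCR2, the receptor that classical monocytes carry in the highest amount. CX3CR1 is the receptor of the membrane-bound chemokine fractalkine (Cx3cl1) and is carried by non-classical monocytes and by many tissue macrophages. Monocytes that settle in tissue and turn into macrophages commonly lower CCR2 and make complement C1q.

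In the GENCODE vM21 annotation of GRCm38, the 4 ligand genes lie on the plus strand of chromosome 11, with Ccl2 (ENSMUSG00000035385) at chr11:82035571-82037453, Ccl7 (ENSMUSG00000035373) at chr11:82045712-82047525, Ccl12 (ENSMUSG00000035352) at chr11:82101845-82103400 and Ccl8 (ENSMUSG00000009185) at chr11:82115185-82116799. Ccr2 (ENSMUSG00000049103) lies at chr9:124101950-124113557 on the plus strand and Cx3cr1 (ENSMUSG00000052336) at chr9:119901616-120069879 on the minus strand. The ligands are paralogs. The last 400 bases of their annotated transcripts, where a 3′ library reads, shared 0 stretches of 31 bases in any of the 6 pairs, so that exact matches of that length cannot be split between them. Ccl8 and Ccl12 are neighbours, and in C1q-high macrophages Ccl8 was higher and Ccl12 lower in the TAK-931 library. The 250 bases before the start of each are therefore shown, from RefSeq promoters of GRCm38.p6, with matches to the TATA motif in capitals.
Ccl12, plus strand, chr11:82101595-82101844: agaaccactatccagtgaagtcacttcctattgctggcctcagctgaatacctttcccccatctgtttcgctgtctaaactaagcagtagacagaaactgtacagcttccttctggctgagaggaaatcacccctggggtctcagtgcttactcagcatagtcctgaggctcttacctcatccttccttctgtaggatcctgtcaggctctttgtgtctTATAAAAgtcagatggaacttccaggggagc
Ccl8, plus strand, chr11:82114935-82115184: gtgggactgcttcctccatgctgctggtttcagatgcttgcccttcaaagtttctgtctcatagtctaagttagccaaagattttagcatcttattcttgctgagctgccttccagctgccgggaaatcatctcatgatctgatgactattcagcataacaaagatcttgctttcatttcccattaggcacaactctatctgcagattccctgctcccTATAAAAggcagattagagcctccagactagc
Both held TATAAAA, with its first base 31 bases before the start in Ccl12 and 32 bases before it in Ccl8, and 4.98% of 32851 promoters held these letters on either strand in a window of the same length. Neither held the other motifs searched on both strands, which were the NF-kB motif (in 45.8% of promoters), TGANTCA for AP-1 (6.75%), TGACGTCA for CRE (1.55%), TTCNNNGAA for STAT (7.02%), the core of the interferon response element (2.98%), GAGGAAGT for PU.1 (2.44%) and TTGCNNAA for C/EBP (9.56%). Of the receptors, Ccr2 held none of the 8 motifs in this window (chr9:124101933-124102182). Cx3cr1 held 1 match to the NF-kB motif (chr9:120068297-120068546). These windows precede the RefSeq starts and overlap the GENCODE genes given above, whose annotated starts differ. The table holds promoters of 4 of the 6 genes, without Ccl2 and Ccl7.

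The vehicle library held 4565 barcodes and a total of 144767193 UMIs (unique molecular identifiers, 1 per captured transcript), and that of TAK-931 had 6558 barcodes and 77369283 UMIs. Cells needed more than 2000 detected genes and a mitochondrial share below 15%, which left 3441 vehicle cells (median 40504 UMIs) and 3488 TAK-931 cells (median 15097 UMIs). The libraries shared 8 barcodes, of which 1 was kept in both. Each cell was classed from its own marker genes, none of which is among the 6 genes. This gave 127 vehicle and 1260 TAK-931 C1q-high macrophages, 89 and 818 C1q-low monocytes, 44 and 105 stromal cells (fibroblasts and mural cells), 84 and 196 endothelial cells, and 3033 and 121 J558 tumour cells. All 9 monocyte/macrophage markers had UMIs in both myeloid classes of both libraries. Summed C1qa, C1qb and C1qc stood at 13296.5 CPM (UMIs of the gene scaled to a fixed total of UMIs in the class) in vehicle and 10393 CPM in TAK-931 C1q-high macrophages, against 33.3 and 153 CPM in C1q-low monocytes. All 8 endothelial, 7 fibroblast, 8 mural and 8 tumour markers had UMIs in their classes in both libraries. The stromal and endothelial classes of the TAK-931 library carried more myeloid RNA than those of the vehicle library. The 9 monocyte/macrophage markers summed to 1720 against 237 CPM in stromal cells, and to 828 against 30.5 CPM in endothelial cells. Cells with markers of 2 lineages numbered 27 of 105 and 26 of 196 in these TAK-931 classes, and 7 of 44 and 5 of 84 in the vehicle classes. Doublets were not removed, and values without these cells are given where they move a result.

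Over all kept cells, each of the 6 genes was higher in the TAK-931 library. Ccl2 went from 8.60 to 339 CPM (log2 ratio 5.30, 5.22 to 5.39), Ccl7 from 4.13 to 218 CPM (5.72, 5.602 to 5.84) and Ccl8 from 35.0 to 1932 CPM (5.79, 5.75 to 5.83). Ccl12 went from 5.601 to 48.2 CPM (3.105, 2.99 to 3.22), Ccr2 from 3.98 to 118 CPM (4.88, 4.76 to 5.01) and Cx3cr1 from 6.50 to 51.4 CPM (2.98, 2.88 to 3.09). Thus 6 of 6 were at least 2-fold higher, where 33.9% of 15087 genes with at least 50 UMIs in both libraries together were at least 2-fold higher and 19.3% at least 2-fold lower. Tumour cells took 95.4% of the UMIs of kept vehicle cells, and C1q-high macrophages went from 1.37% to 35.2% of UMIs. The part of each difference that came with the cell classes present was therefore computed, by changing each class's share of UMIs while its level was held at the vehicle or at the TAK-931 value. For the ligands Ccl2, Ccl7 and Ccl8 the answer depended on which level was held. The change in class shares came to 23.4%, 18.2% and 38.3% of the difference at vehicle levels, and to 89.5%, 92.1% and 94.6% at TAK-931 levels. For Ccr2 it came to 83.4% and 94.9%. For Ccl12 it came to 291% and 104% and for Cx3cr1 to 285% and 107%, since levels inside the classes went the other way under both.

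The ligands had different sources. In the vehicle library 50.8% (47.9 to 53.6) of Ccl2 UMIs and 65.1% (61.1 to 69.0) of Ccl7 UMIs lay in the 44 stromal cells, and C1q-high macrophages held 18.0% and 22.9%. The 10 leading vehicle stromal cells held 82.6% of the stromal Ccl2 and 84.7% of the stromal Ccl7 UMIs. In the TAK-931 library C1q-high macrophages held 46.6% of Ccl2 and 67.3% of Ccl7 UMIs, and stromal cells 22.9% and 18.6%. Ccl8 and Ccl12 came mainly from C1q-high macrophages in both libraries, with 83.1% and 93.4% of Ccl8 UMIs and 81.3% and 79.9% of Ccl12 UMIs. Ccr2 UMIs were spread more widely. C1q-low monocytes held 49.3% of them under vehicle and 38.7% under TAK-931, C1q-high macrophages 24.6% and 30.0%, and T cells held 18.4% in the TAK-931 library. C1q-high macrophages held 64.1% and 64.9% of Cx3cr1 UMIs.

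**Figure D1:**
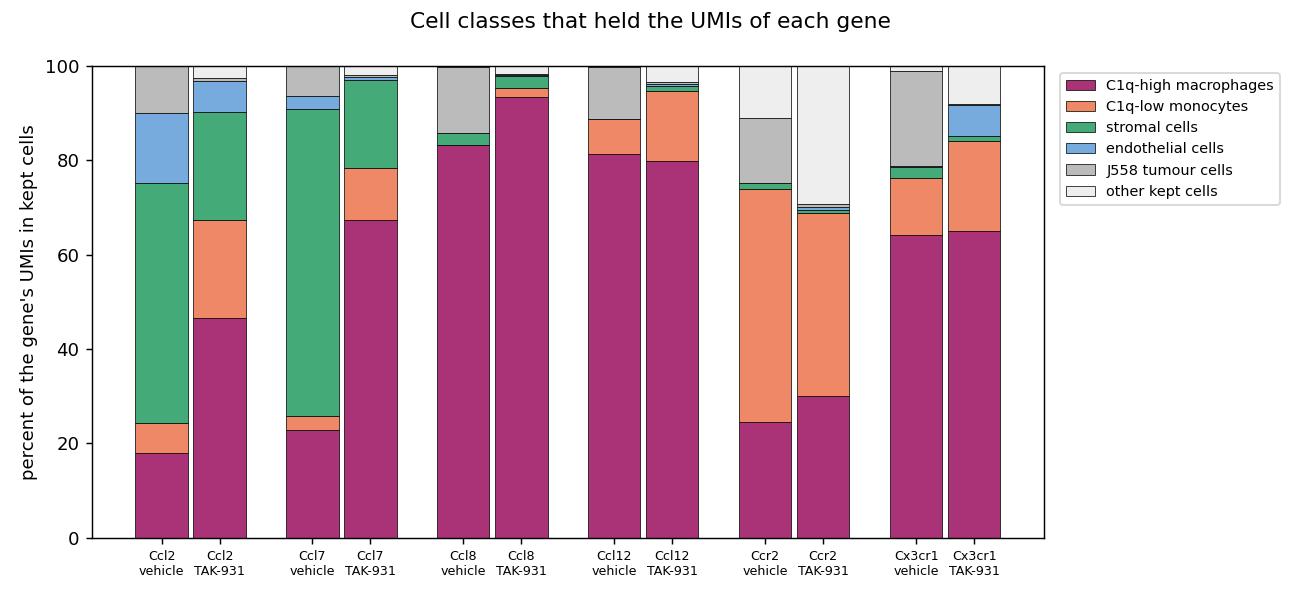
Share of each gene's UMIs in kept cells (percent, vertical axis) that lay in each cell class, for the vehicle and the TAK-931 library. Stromal cells held 50.8% of Ccl2 and 65.1% of Ccl7 UMIs in the vehicle library, and C1q-high macrophages held most Ccl8, Ccl12 and Cx3cr1 UMIs in both libraries.

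In C1q-high macrophages, the monocyte chemoattractants Ccl2 and Ccl7 were higher in the TAK-931 library. Ccl2 stood at 113 CPM (98.3 to 129) in vehicle and 449 CPM (441 to 458) in TAK-931 macrophages, a log2 ratio of 1.99 (1.80 to 2.19). Ccl7 had 68.8 CPM (57.6 to 81.5) under vehicle and 416 CPM (408 to 425) under TAK-931, a log2 ratio of 2.597 (2.35 to 2.86). Ccl8, by far the most abundant of the 4 ligands there, had 2122 CPM (2058 to 2188) under vehicle and 5127 CPM (5099 to 5156) under TAK-931, a log2 ratio of 1.27 (1.23 to 1.32). Each transcript gives 1 tag in this 3′ assay whatever its length, so these levels can be set side by side between genes. The fourth ligand, Ccl12, went the other way. It stood at 332 CPM (307 to 359) in vehicle and 109 CPM (105 to 114) in TAK-931 macrophages, a log2 ratio of -1.60 (-1.73 to -1.48).

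The receptors also differed from each other in these macrophages. Cx3cr1 stood at 304 CPM (280.1 to 329.8) under vehicle and 94.8 CPM (90.9 to 98.7) under TAK-931, a log2 ratio of -1.68 (-1.81 to -1.55). Ccr2 had 71.4 CPM (60.0 to 84.3) under vehicle and 100.3 CPM (96.3 to 104) under TAK-931, a log2 ratio of 0.49 (0.24 to 0.75), within 2-fold. Of the 6 genes 3 were at least 2-fold higher, 2 at least 2-fold lower and 1 within 2-fold. Among 10421 genes counted in these cells, 9.83% were at least 2-fold higher and 7.87% at least 2-fold lower, and the median log2 ratio was -0.07 against 0.88 for the 6 genes.

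Few vehicle cells carried much of some of these levels. The 10 vehicle macrophages with most UMIs of the gene held 65.1% of Ccl12 UMIs (107 of 642 in 1 cell), 64.2% of Ccl2, 54.9% of Ccl8, 54.1% of Ccl7, 47.8% of Ccr2 and 34.7% of Cx3cr1 UMIs. In the TAK-931 library the 10 leading cells held 7.12% to 14.5%. Leaving out these 10 cells in each library took the Ccl12 log2 ratio to -0.45, within 2-fold, and that of Cx3cr1 to -1.43. The same step took Ccl2 to 3.20, Ccl7 to 3.40, Ccl8 to 2.02 and Ccr2 to 1.21. It removes a larger fraction of the 127 vehicle than of the 1260 TAK-931 cells, and all 6 ratios were higher after it.

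**Figure D2:**
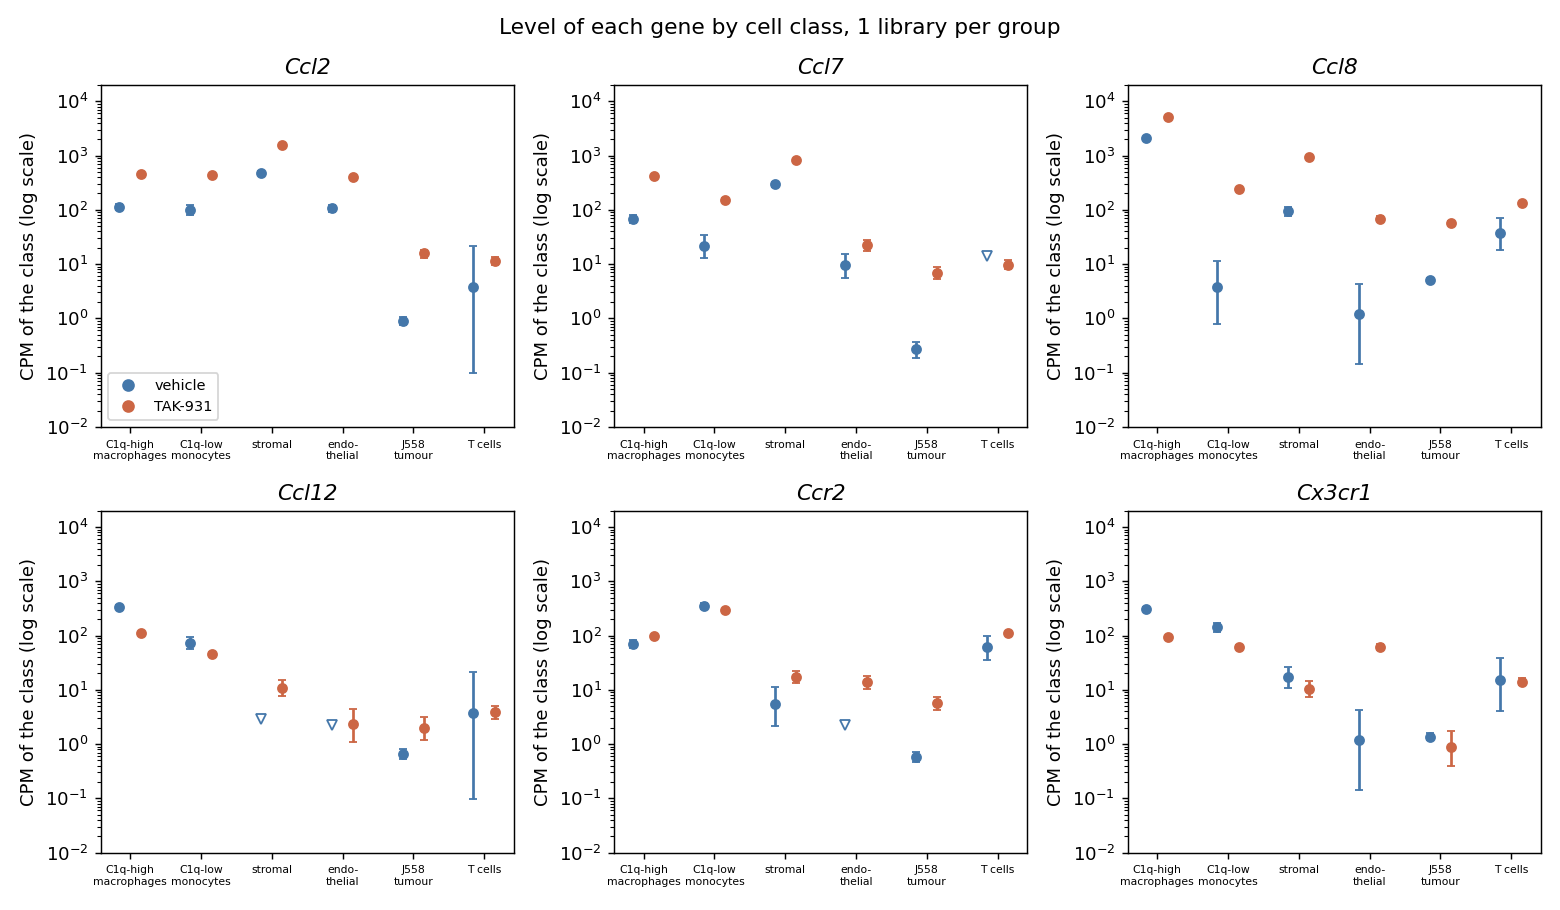
Level of each gene (CPM of the class, log scale) in 5 cell classes and in T cells, with exact Poisson 95% intervals, for vehicle and TAK-931. Open triangles mark the upper end of the interval where no UMI was found. In C1q-high macrophages Ccl2, Ccl7 and Ccl8 were higher and Ccl12 and Cx3cr1 lower in the TAK-931 library.

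The macrophages of the libraries also differed in maturity markers. The median summed C1q level was 132 per 10000 UMIs in vehicle and 93.1 per 10000 UMIs in TAK-931 C1q-high macrophages, and 6 classical monocyte markers summed to 296 and 1140 CPM. The 5 T cell markers summed to 3.104 CPM, with Cd3d, Cd3g and Trac at 0, and to 109 CPM. Levels were therefore also read within bins of the C1q level. Ccl8 was higher at each higher C1q bin in both libraries, from 186 CPM (124 to 267) at 10 to 50 per 10000 UMIs to 3808 CPM (3669 to 3950) at 150 and over in the vehicle, and from 767 CPM (743 to 793) to 13177 CPM in the TAK-931 library. The thinnest bin, vehicle cells from 10 to 50, held 15 cells. Ccr2 was lower at high C1q in both libraries, from 166 CPM (109 to 244) to 16.1 CPM (8.34 to 28.2) under vehicle and from 183 CPM (171 to 195) to 33.6 CPM (28.9 to 38.8) under TAK-931. Without the bin of 15 cells, the vehicle bins still ran from 910 to 3808 CPM for Ccl8 and from 153 to 16.1 CPM for Ccr2. The Ccr2 intervals overlapped between libraries in the 3 lower bins. Ccl2, Ccl7 and Ccl8 were higher in the TAK-931 library in all 4 bins, with intervals that did not overlap. Cx3cr1 was lower in all 4 bins, for example 349.8 CPM (309 to 395) against 67.1 CPM (60.4 to 74.4) at the highest C1q. Ccl12 was lower in the 3 bins from 50 up, with 463 CPM (415 to 514) against 145 CPM (135 to 156) at the highest, while the interval of the lowest bin (89.6 CPM, 49.0 to 150.4, in 15 vehicle cells) held the TAK-931 level of 74.7 CPM. In cells from 50 to under 150 per 10000 UMIs alone, a range chosen after seeing the data, the log2 ratios were 1.52 for Ccl2, 2.61 for Ccl7, 1.55 for Ccl8, -1.35 for Ccl12, 0.02 for Ccr2 and -1.44 for Cx3cr1. The part of other marker differences in these results was not tested.

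**Figure D3:**
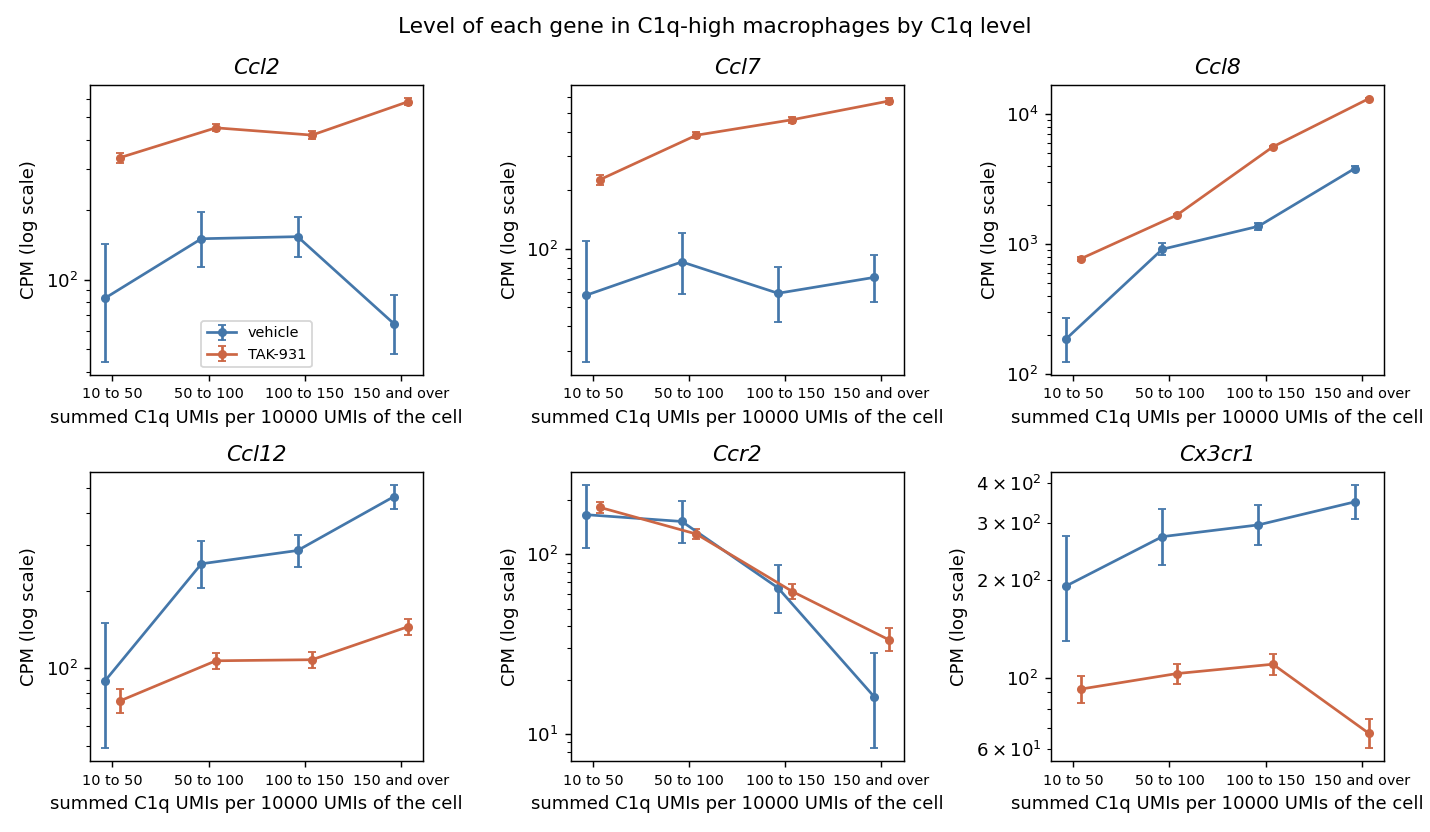
Level of each gene (CPM, log scale) in C1q-high macrophages binned by their summed C1q UMIs per 10000 UMIs, with exact Poisson 95% intervals. Ccl8 is higher and Ccr2 lower at each higher bin of C1q, and Cx3cr1 is lower in the TAK-931 library in all 4 bins.

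C1q-low monocytes carried the highest Ccr2 level of the 5 classes in both libraries. It stood at 355 CPM (314 to 399) in vehicle and 290.4 CPM (280.4 to 301) in TAK-931 monocytes, a log2 ratio of -0.29 (-0.47 to -0.11), within 2-fold. Cx3cr1 was lower in the TAK-931 library, at 142 CPM (117 to 171) against 62.7 CPM (58.1 to 67.6), a log2 ratio of -1.18 (-1.47 to -0.88). The class held 88 classical and 1 non-classical monocyte under vehicle, and 691 and 127 under TAK-931, where Cx3cr1 stood at 155 CPM in non-classical and 49.6 CPM in classical monocytes. In classical monocytes alone, an alternative added after seeing the data, the log2 ratio of Cx3cr1 was -1.53 (-1.83 to -1.22). That of Ccr2 was -0.18 (-0.36 to 0.0043) there. In all C1q-low monocytes, leaving out the 10 leading cells of each library took the Cx3cr1 ratio to -0.43 (-0.85 to 0.014).

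Ccl2 was also higher in TAK-931 monocytes, at 447 CPM (434 to 459) in 474 of 818 cells against 99.9 CPM (79.0 to 125) in 12 of 89 vehicle cells, a log2 ratio of 2.16 (1.84 to 2.50). The 10 leading vehicle cells held 97.4% of these UMIs, and leaving out the 10 leading cells of each library left 2 vehicle UMIs and a log2 ratio of 7.04 (5.18 to 10.08). Ccl7 stood at 21.8 and 154 CPM (log2 ratio 2.82, 2.14 to 3.61), but the 17 vehicle UMIs lay in 1 cell. With cells classed by Leiden cluster, the log2 ratios of Ccl2 and Ccl7 were 3.49 and 6.04. Ccl8 had 3 UMIs under vehicle (3.84 CPM, 0.793 to 11.2) and 2604 under TAK-931 (239 CPM), a log2 ratio of 5.96 (4.41 to 8.24). A single TAK-931 cell held 31.1% of these UMIs, and T cells of the same library, read here as cells that should lack Ccl8, stood at 132 CPM, with 553 of their 1756 UMIs in 1 cell and 48.3% in 10 cells. With free RNA (transcripts shed by other cells into the droplets, estimated from the whole library) subtracted, the log2 ratio of Ccl8 was 5.13. Ccl12 stood at 74.3 and 45.3 CPM (log2 ratio -0.71, -1.11 to -0.29), with 43 of 58 vehicle UMIs in 1 cell, and all 58 in 5 cells. Its direction did not hold across alternatives, with a log2 ratio of 1.45 by Leiden cluster and 0 vehicle against 293 TAK-931 UMIs once the 10 leading cells of each library were left out. Of the 6 genes 3 were at least 2-fold higher, where 13.3% of 8734 genes were, and 1 was at least 2-fold lower, where 3.24% were.

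**Figure D4:**
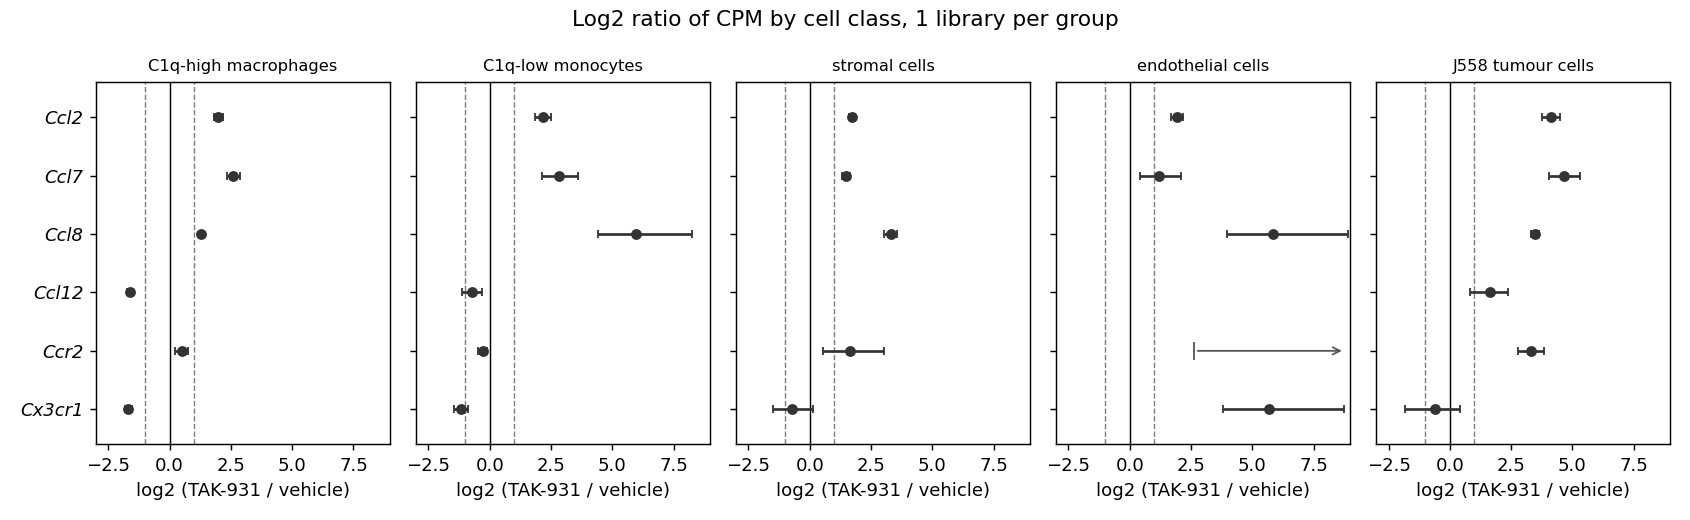
Ratio of the CPM under TAK-931 to that under vehicle, on the log2 scale, for each gene with at least 50 UMIs in the class, with exact 95% counting intervals. Dashed lines mark 2-fold, and an arrow starts at the lower bound where the vehicle class had 0 UMIs (Ccr2 in endothelial cells). Ccl2 and Ccl7 lie above 2-fold in all 5 classes (Ccl7 in endothelial cells turned to -0.078 with free RNA subtracted), and Cx3cr1 lies below it in both myeloid classes. In tumour cells both ligands stood at or near their T cell levels, and no expression was read from them.

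Stromal cells had the highest Ccl2 and Ccl7 levels of the 5 classes in both libraries. Ccl2 stood at 480.3 CPM (443 to 519.8) in vehicle and 1578 CPM (1536 to 1620.4) in TAK-931 stromal cells, a log2 ratio of 1.72 (1.60 to 1.84). Ccl7 had 296 CPM (267 to 327) under vehicle and 821 CPM (791 to 852) under TAK-931, a log2 ratio of 1.47 (1.32 to 1.63). These levels were mainly those of fibroblasts, collagen-making cells of which there were 26 and 67. Fibroblasts held Ccl2 at 599.6 and 1892 CPM and Ccl7 at 424 and 1092 CPM. Mural cells, the contractile cells around vessels (18 and 38 cells), held Ccl2 at 227 and 795 CPM and Ccl7 at 21.9 and 145 CPM. Both ligands thus stood higher in the TAK-931 library in either stromal type.

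Ccl8 stood at 94.4 CPM (78.3 to 113) in vehicle and 931 CPM (899 to 964) in TAK-931 stromal cells, a log2 ratio of 3.30 (3.04 to 3.58). Here 1294 of the 3182 TAK-931 UMIs lay in 1 mural cell. In fibroblasts alone Ccl8 had 139 CPM (115 to 166) under vehicle and 748 CPM (714 to 783) under TAK-931, a log2 ratio of 2.43 (2.17 to 2.71). Without cells with markers of 2 lineages, the stromal log2 ratios were 2.08 for Ccl2, 1.73 for Ccl7 and 2.63 for Ccl8. Leaving out the 10 leading cells of each library, 10 of 44 in the vehicle, took them to 3.16, 3.11 and 4.66. Ccl12 had 0 UMIs in stromal cells under vehicle and 37 under TAK-931 and was not counted. Ccr2 had 7 and 59 UMIs (log2 ratio 1.66, 0.53 to 3.04). Its log2 ratio was -5.02 once free RNA was subtracted, but the estimated free RNA exceeded the 59 UMIs. That value rests on an added 0.5 UMI, and no direction was read from it. Cx3cr1 had 22 and 36 UMIs, a log2 ratio of -0.70 (-1.51 to 0.13), which turned to 0.66 by Leiden cluster. The C1q genes summed to 3.90 CPM in vehicle and 710 CPM in TAK-931 stromal cells. Of the 5 genes with at least 50 UMIs, 4 were at least 2-fold higher, where 11.4% of 7852 genes were, and 0 were at least 2-fold lower, where 5.03% were.

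In endothelial cells, Ccl2 was the main ligand. It stood at 107 CPM (91.9 to 124) in vehicle and 406 CPM (386 to 427) in TAK-931 cells, a log2 ratio of 1.92 (1.70 to 2.16), or 1.33 without cells with markers of 2 lineages. The 10 leading cells held 89.9% of the vehicle and 66.7% of the TAK-931 Ccl2 UMIs, and without them the log2 ratio was 3.54. Ccl7 stood at 9.56 and 22.1 CPM (log2 ratio 1.21, 0.43 to 2.08). Ccl8 had 2 vehicle UMIs and stood at 69.0 CPM in the TAK-931 cells (log2 ratio 5.85, 3.99 to 8.91). T cells of that library stood at 132 CPM, 31.5% of it from 1 cell as given above. With free RNA subtracted, the log2 ratios of Ccl7 and Ccl8 were -0.078 and -1.89. For Ccl8 the estimated free RNA exceeded the TAK-931 UMIs, so that -1.89 rests on an added 0.5 UMI and gives no direction.

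The receptors in endothelial cells rested on few cells. Cx3cr1 had 2 UMIs in vehicle cells and 234 UMIs (61.0 CPM) in TAK-931 cells, a log2 ratio of 5.67 (3.80 to 8.73). These 234 UMIs lay in 21 of 196 cells, and 10 of them held 90.2%. Without cells with markers of 2 lineages the log2 ratio was 5.09. Ccr2 had 0 and 54 UMIs, at least 7.85-fold higher against a floor of 3 counts. The C1q genes summed to 4.78 and 152 CPM in these cells, which in an unsupervised clustering fell mainly in different clusters, since 1 endothelial cluster held 80 vehicle and 1 TAK-931 cells and another held 6 and 241. All 5 counted genes were at least 2-fold higher, where 6.32% of 8208 genes were, and 0 were at least 2-fold lower, where 7.96% were. The part of myeloid RNA in the endothelial results was not tested.

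J558 tumour cells had low levels of each gene. The highest was Ccl8, at 5.16 CPM (4.78 to 5.56) in vehicle and 57.6 CPM (52.7 to 62.8) in TAK-931 tumour cells, a log2 ratio of 3.48 (3.31 to 3.65). A single vehicle cell held 244 of the 694 UMIs. Ccl2 stood at 0.899 and 15.7 CPM with 58 of 121 and 70 of 140 UMIs in 1 cell, Ccl7 at 0.268 and 6.84 CPM, Ccl12 at 0.654 and 2.02 CPM, Ccr2 at 0.580 and 5.72 CPM, and Cx3cr1 at 1.36 and 0.897 CPM. The Cx3cr1 log2 ratio of -0.60 (-1.83 to 0.41) turned to 0.52 with the mean of each cell's CPM. Of the ligands, Ccl7, Ccl8 and Ccl12 in TAK-931 tumour cells stood below their levels in TAK-931 T cells, and Ccl2 above its T cell level of 11.5 CPM. Thus 5 of 6 genes were at least 2-fold higher in the TAK-931 library, where 9.09% of 12481 genes were, and 0 were at least 2-fold lower, where 5.22% were. The Ccl8 log2 ratio was -3.73 with free RNA subtracted, but the estimated free RNA exceeded the TAK-931 UMIs. That value rests on an added 0.5 UMI, and no direction was read from it. Without cells with markers of 2 lineages, 3 genes were at least 2-fold higher, where 7.80% of all genes were. No expression of the ligands by tumour cells was read from levels at or near those of T cells.

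Shares of cells with a UMI were compared after each cell was thinned to 4000 UMIs, because the classes differed in depth (median 13081 and 16868 UMIs in C1q-high macrophages, 8303 and 12120.5 in C1q-low monocytes). No cell of these classes was too shallow (0 in each library). In C1q-high macrophages Ccl2 was found in 22.0% (15.2 to 30.3) of cells under vehicle and 56.0% (53.2 to 58.8) under TAK-931, and the unthinned shares were 36.2% and 76.5%. Ccl7 was detected in 15.7% and 39.0%, and Ccl8 in 45.7% and 67.7%. Ccl12 was detected in 35.4% (27.2 to 44.4) and 23.4% (21.1 to 25.9), Cx3cr1 in 46.5% (37.6 to 55.5) and 21.3% (19.0 to 23.6), and Ccr2 in 21.3% (14.5 to 29.4) and 29.0% (26.6 to 31.6). The intervals did not overlap for 5 of the 6 genes, and overlapped for Ccr2. In T cells of the TAK-931 library (689 cells, median 14593 UMIs) the thinned shares were 3.19% for Ccl2, 1.89% for Ccl7, 23.7% for Ccl8 and 1.60% for Ccl12, read as the background of the ligands. The vehicle library held 16 T cells (median 15517 UMIs), with 1 carrying a Ccl8 UMI.

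In C1q-low monocytes Ccr2 was detected in 69.7% (59.0 to 79.0) of thinned cells under vehicle and 55.3% (51.8 to 58.7) under TAK-931, and Cx3cr1 in 30.3% (21.0 to 41.0) and 16.7% (14.3 to 19.5). Ccl2 was detected in 11.2% (5.52 to 19.7) and 43.4% (39.97 to 46.9). Ccl8 was detected in 1.12% and 33.7%, against the T cell share of 23.7% in the TAK-931 library. Ccl12 was detected in 3.37% and 9.41%, opposite to its CPM, so that no order was read from it. T cells carried Ccr2 (26.7% of them in the TAK-931 library) and Cx3cr1 (3.63%), so that tumour cells (median 42441 and 75045 UMIs) were used for the receptors, with a background of 0.165% and 3.31% for Ccr2 and of 0.363% and 0.826% for Cx3cr1.

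**Figure D5:**
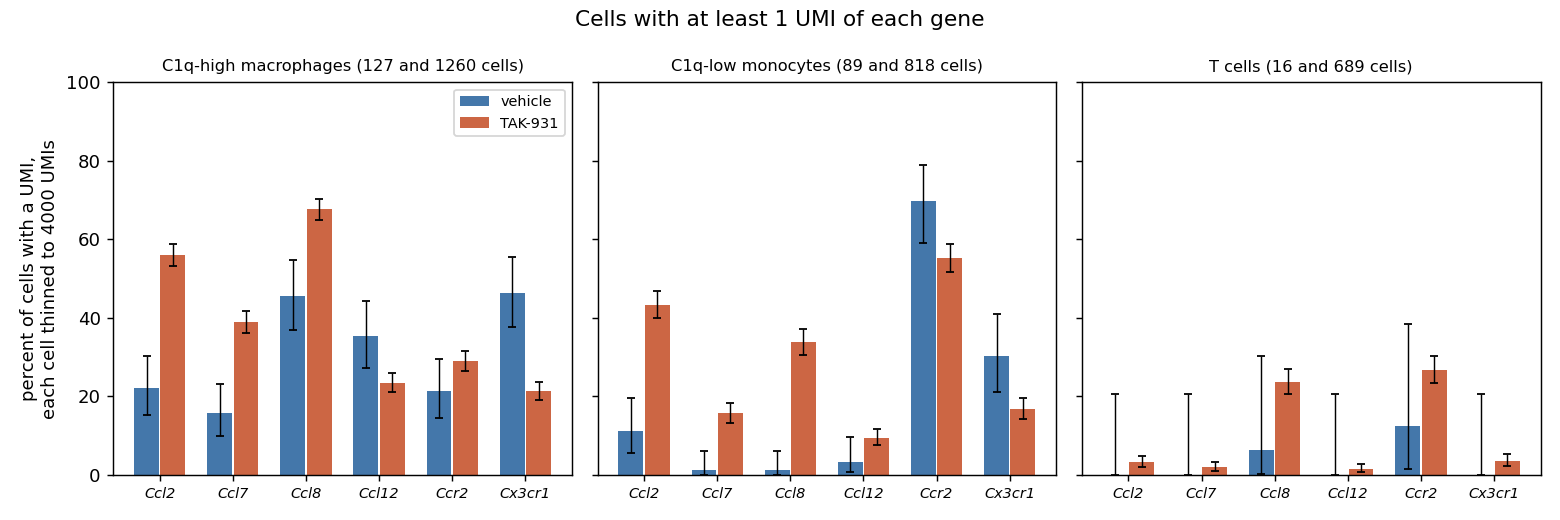
Percent of cells with at least 1 UMI of each gene after thinning to 4000 UMIs per cell, with exact Clopper-Pearson 95% intervals, in C1q-high macrophages, C1q-low monocytes and T cells. In macrophages Ccl2 was found in 22.0% of cells under vehicle and 56.0% under TAK-931 and Cx3cr1 in 46.5% and 21.3%, and T cells show the background of the ligands.

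Detection of 1 gene was also read in thinned C1q-high macrophages with and without another. In the TAK-931 library each ligand pair named here had the higher share in cells with the first ligand. Ccl7 was detected in 54.7% of the cells with a Ccl2 UMI and in 19.0% of the rest. Ccl12 was detected in 32.7% of the cells with Ccl2 and 11.6% of the rest, and Ccl8 in 80.9% of the cells with Ccl7 and 59.3% of the rest. Cx3cr1 was detected in 18.7% of the cells with Ccl2 and 24.5% of the rest, and in 15.9% of the cells with Ccl7 and 24.7% of the rest. Ccr2 was detected in 25.2% of the cells with Ccl8 and 37.1% of the rest. In the 127 vehicle macrophages, Ccl7 was detected in 39.3% of the 28 cells with Ccl2 and in 9.09% of the rest, and Ccl12 in 64.3% and 27.3%. The other vehicle shares were closer together for 3 of the pairs above, with Ccl8 in 45.0% of the cells with Ccl7 and 45.8% of the rest, and Cx3cr1 in 46.4% and 46.5% by Ccl2 and in 45.0% and 46.7% by Ccl7. Ccr2 was detected in 13.8% of the vehicle cells with Ccl8 and 27.5% of the rest. Cells of 1 library are not replicates, so these shares are descriptions.

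Over 17 values of cell class and library with at least 20 cells, the genes most like each member were ranked by Pearson's r of log2(CPM + 10) among 10965 genes, as a description in which classes of 1 library share their free RNA. Ccl2 was most like the neutrophil chemokine Cxcl1 (0.93), followed by Stam, Fbh1, Socs1 and Lsmem1. Ccl7 was most like the transcription factor gene Mitf (0.94), followed by the complement gene C4b, S1pr2, Ccl2 (0.88) and Anpep. Ccl8 was most like C1qb (0.89), C1qc and C1qa, the genes that gated the macrophages, followed by Cpsf4 and Lamtor3. Ccl12 was most like Abcc3 (0.97), Ms4a7, the lipid receptor gene Trem2, Tmem141 and Il1a. The genes most like Ccr2 included Runx3 (0.95), Gtf2f2, Malt1 and the pan-leukocyte gene Ptprc. Cx3cr1 was most like the Toll-like receptor gene Tlr1 (0.91), Lst1, Spic, Clec4a3 and Rab32. Among the 6 genes, the closest pairs were Ccl2 with Ccl7 (0.88) and Ccl12 with Cx3cr1 (0.78).

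A list of 30 other chemokines, receptors, growth factors and adhesion molecules of monocyte recruitment was read in the same way. In C1q-high macrophages 6 of 21 counted genes were at least 2-fold higher, 2 at least 2-fold lower and 13 within 2-fold, where 9.83% of all genes were higher and 7.87% lower, with a median log2 ratio of 0.14 against -0.07 for all genes. The inflammatory chemokine Ccl5 went from 220 to 938 CPM (log2 ratio 2.09) and Ccl3 from 70.4 to 208 CPM (1.56). The eosinophil chemokine Ccl24 went from 48.6 to 11.7 CPM (-2.06), the adhesion molecule Vcam1 from 934 to 233 CPM (-2.00) and Ccl9 from 114 to 71.9 CPM (-0.66). In C1q-low monocytes 5 of 21 were at least 2-fold higher and 1 lower, where 13.3% and 3.24% of all genes were, with a median log2 ratio of 0.33 against 0.14 for all genes. Here Ccl5 went from 44.8 to 568 CPM (3.66), Ccl3 from 30.7 to 127 CPM (2.04), Vcam1 from 7.69 to 30.4 CPM (1.98) and Ccl24 from 65.3 to 19.2 CPM (-1.77). Itgam, the integrin chain CD11b, went from 211 to 119 CPM (-0.83) and the growth factor receptor Csf1r from 338 to 287 CPM (-0.24), both within 2-fold.

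In stromal cells 19 of the 20 counted genes of this list were at least 2-fold higher and 0 lower, where 11.4% and 5.03% of all genes were, with a median log2 ratio of 2.80 against -0.04 for all genes. Ccl4, with 1 vehicle UMI, stood at 0.780 and 100.3 CPM (7.01, 4.52 to 12.32), Ccl5 at 5.46 and 257 CPM (5.55) and the scavenger receptor Ackr3 at 5.46 and 252 CPM (5.53). The lowest 3 were the adhesion molecule Icam1 at 122 and 195 CPM (0.68), the Csf1r ligand Il34 at 7.80 and 18.1 CPM (1.22) and Itgam at 7.80 and 19.9 CPM (1.35). In endothelial cells 16 of 18 were at least 2-fold higher and 1 lower, where 6.32% and 7.96% of all genes were, with a median log2 ratio of 4.09 against -0.14 for all genes. The leading 3 each had 1 vehicle UMI (0.597 CPM), with Ccl5 at 144 CPM in the TAK-931 library (7.92, 5.43 to 13.22), Csf1r at 18.8 CPM (4.97, 2.45 to 10.30) and Ccl6 at 13.03 CPM (4.45, 1.90 to 9.78), while Ackr3 stood at 81.9 and 25.3 CPM (-1.70). The selectins that slow leukocytes on the vessel wall stood at 84.8 and 108 CPM for Selp (0.35) and 22.1 and 45.1 CPM for Sele (1.03). In tumour cells 14 of 21 were at least 2-fold higher and 0 lower, where 9.09% and 5.22% of all genes were, with a median log2 ratio of 2.70 against 0.02 for all genes. Among them were Ccl5 at 1.26 and 250.2 CPM (7.64) and Ccl4 at 0.491 and 42.8 CPM (6.45), with Ackr4 (-0.09), Itgal (0.0019) and Ccrl2 (0.07) lowest. Several of these, such as Csf1r and Itgam, are myeloid genes. The summed monocyte/macrophage markers were higher in the TAK-931 stromal and endothelial cells, as given above. Their part in these counts was not tested.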

How the data were processed

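The authors made the deposited counts, UMI counts per gene and cell barcode, from 10x Chromium 3′ v3.1 libraries of dissociated J558 allografts, with Cell Ranger 6.0.0 and build mm10 per the labels. All further steps used Python 3.11.15 with numpy 2.4.6, scipy 1.17.1, pandas 2.3.3 and scanpy 1.11.5. Cells needed more than 2000 detected genes and a mitochondrial share below 15%. Each was classed by marker genes, with macrophages at 10 or more C1q UMIs per 10000, and the cut-offs were set on markers after their distributions had been seen. Doublets were not removed. CPM came from the sum of UMIs over a class in 1 library. With 1 library per treatment no test was made. Ratios carry exact conditional 95% intervals, levels exact Poisson and shares Clopper-Pearson intervals. A gene was counted with at least 50 UMIs in both libraries together and called at 2-fold. A gene at 0 UMIs was bounded with a floor of 3 counts per library. The ratio step was tested on simulated data. Free RNA was subtracted as an alternative, using the profile of the whole library. Sums that fell below 0 were then set to 0, and 0.5 UMI was added to every sum. Pathway genes named were up to 3 with the highest and 3 with the lowest ratio per class, and 5 like genes per member. Some genes that this rule names are not reported here. The members and lists were chosen with earlier results of these data known. The study's methods name a human build for the single-cell work, whereas these features carry mouse identifiers.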

Additional observations from a re-analysis of the deposited data

Results flagged for a closer look

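Among ratios past 2-fold, the direction of 2 genes differed between cell classes under the same contrast. The log2 ratio of Ccl12, TAK-931 over vehicle, was 1.62 in J558 tumour cells and -1.60 in C1q-high macrophages. The tumour value rests on 18 UMIs in the TAK-931 library, 9 of them in 1 cell, at 2.02 CPM, below the 3.90 CPM of T cells there. That of Cx3cr1 was 5.67 in endothelial cells, against -1.68 in C1q-high macrophages and -1.18 in C1q-low monocytes. These differences between classes were not tested.

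Barcodes with over 500 and up to 2000 genes, which no comparison above used, held Ccl2, Ccl7 and Ccl8 above their vehicle level. Among such barcodes with the markers of C1q-high macrophages (37 vehicle and 202 TAK-931), Ccl2 stood at 456 CPM in the TAK-931 and 60.1 CPM in the vehicle library, Ccl7 at 398 and 60.1 CPM, and Ccl8 at 9053 and 3599 CPM, while Ccl12 stood at 138 CPM (111 to 169) in the TAK-931 and 804 CPM (659 to 971) in the vehicle library. Among those with the markers of C1q-low monocytes (43 and 95), Ccl2 stood at 651 and 98.0 CPM, Ccl7 at 175 and 4.45 CPM, and Ccl8 at 796 and 4.45 CPM, while Ccl12 stood at 161 CPM (126 to 204) and 138 CPM (93.8 to 196), intervals that overlapped. The vehicle values of Ccl7 and Ccl8 in these monocytes are 1 UMI each.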

How the results depend on the processing

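In C1q-high macrophages the sign of each of the 6 log2 ratios was the same in all 13 alternatives, with Ccl2 at 1.52 to 3.20, Ccl7 at 2.48 to 3.40, Ccl8 at 1.22 to 2.02, Ccl12 at -1.81 to -0.45, Ccr2 at 0.02 to 1.21 and Cx3cr1 at -1.71 to -1.43. The C1q range from 50 to under 150 and the classical monocytes alone were chosen after seeing the data. With free RNA subtracted, 4 ratios past 2-fold turned: Ccr2 in stromal cells to -5.02, Ccl7 and Ccl8 in endothelial cells to -0.078 and -1.89, and Ccl8 in tumour cells to -3.73. Of these, only Ccl7 kept TAK-931 UMIs after the subtraction. In the others the estimated free RNA exceeded the UMIs found, so that the ratio rests on an added 0.5 UMI and gives no direction. Of the ratios within 2-fold, 3 also turned, Ccl12 in monocytes to 1.45 by Leiden cluster and, with 0 vehicle UMIs left, without the 10 leading cells, Cx3cr1 in stromal cells to 0.66 by Leiden cluster, and Cx3cr1 in tumour cells to 0.52 with the mean of each cell's CPM. Subtracting free RNA gave 2 genes at least 2-fold lower in stromal cells (7.08% of all genes), 3 higher (5.98%) and 1 lower (8.43%) in endothelial cells, and 2 lower in tumour cells (5.31%). These lower calls include the ratios above that rest on an added 0.5 UMI, so no fall was read from them. With the 10 leading cells left out, 1 gene was lower in macrophages, 0 in monocytes and 1 in tumour cells. In endothelial cells 2 were higher, and in tumour cells 2. Ccr2 in macrophages newly passed 2-fold higher (1.21), as did Ccl12 in monocytes with 0 vehicle UMIs left. The cells left out differ by gene, and the share over all genes was not computed, so nothing was read from these counts. Without cells with markers of 2 lineages, 3 were higher in endothelial (4.82% of all genes) and 3 in tumour cells (7.80%). At 1.5-fold, 2 genes were lower in monocytes (9.50% of all genes), 1 in stromal (16.2%) and 1 in tumour cells (12.6%). The cause was not tested. Median-ratio scaling subtracted a median log2 ratio of -0.18 in macrophages, -0.22 in stromal, -0.24 in endothelial and 0.16 in all kept cells, so that ratios were higher after it in the first 3 and lower in the last. With 1 library per treatment no replicate could be left out. The intervals cover counting error only, and the spread between animals, which also limits the precision, was not measured. No paired analysis was possible because each treatment had 1 library.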

Other observations

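Dendritic cells, which also follow CCR2 ligands, held Ccr2 at 73.7 CPM (43.7 to 116) in 19 vehicle cells and 218 CPM (197 to 242) in 89 TAK-931 cells, a log2 ratio of 1.57 (0.89 to 2.34). In the TAK-931 library NK cells (55 cells) held Ccr2 at 302 CPM (262 to 347), a level whose interval overlapped that of C1q-low monocytes, and plasmacytoid dendritic cells (61 cells) held it at 174 CPM (146 to 207). Of these NK cells 37 carried markers of 2 lineages. The class also took cells that failed the marker cut-offs, led in monocyte/macrophage markers and carried any NK marker, so its Ccr2 level may include myeloid cells.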
